A study of Mus musculus with 9 samples.

Results

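The comparison set myeloid cells with a medium level of surface Ly6C against cells with a high level, both from wounded mouse skin. It rested on the 3 arrays labelled Ly6C medium and the 3 labelled Ly6C high, 6 of the 9 arrays in the series. All 22180 genes represented by a probe set with a single symbol were members. Every group came from male C57BL/6J mice aged 8 weeks. The cells were taken from the plantar hindpaw 24 h after an incision, on a single day, and all were positive for CD11b, an integrin subunit found on myeloid cells, and negative for Ly6G, a neutrophil surface protein. The gates therefore differed by label only in their Ly6C level, and no uninjured tissue was part of the comparison. This sort does not exclude eosinophils, natural killer cells or dendritic cells, some of which carry CD11b. The 3 arrays of the Ly6C low gate entered the fit because the spread between arrays was estimated over all gates. Values are log2 intensities, so that a difference of 1 equals a 2-fold difference.

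Ly6C is a small protein anchored to the outer face of the cell membrane, abundant on classical monocytes. These cells leave the bone marrow through the chemokine receptor CCR2, enter injured tissue, lose Ly6C and can become macrophages. Macrophages that already live in the dermis carry scavenger receptors such as CD163 and the hyaluronan receptor LYVE1 and have little Ly6C. A medium gate can hold cells between these states as well as mixtures of them, and in sorted bulk samples fewer cells of a type and less RNA per cell cannot be told apart.

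The transcripts behind the sort were read first. Ly6c2, which encodes Ly6C, was measured at 12.26, 12.48 and 12.08 on the high arrays and 11.27, 11.20 and 11.20 on the medium arrays. All medium arrays lay below all high arrays, by a log2 difference of -1.05 (95% interval -1.90 to -0.20), but the gene missed the threshold (limma adjusted p = 0.527). Without low replicate 3 the limma adjusted p was 0.0407 at the same difference, with an SE of 0.13 in place of 0.38. Itgam, which encodes CD11b, was bright in both gates (10.85, 11.14 and 11.06 in high; 10.87, 10.85 and 10.97 in medium) and its arrays overlapped. Ly6g was near the lower end of the array scale in both, at 2.88, 3.28 and 2.91 in high and 2.79, 2.74 and 3.64 in medium. Array medians over the genes tested ranged from 4.16 to 4.30. Arrays of the same gate correlated across genes at 0.983 to 0.989, and high with medium arrays at 0.979 to 0.989. Genes are not independent replicates in such a correlation. No label says that replicates are separate animals, so p-values reflect only how much these samples varied, and that variation may be technical.

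Few genes separated the gates. In medium, 9 genes were higher (0.0406% of those tested) and 44 lower (0.198%) at a limma adjusted p under 0.05, 53 in all (0.239%). At an unadjusted p under 0.05 (limma) there were 826 higher and 845 lower of the 22180 genes, the background for the list counts below. Of the 53 genes, 45 differed by at least 2-fold, 4 of them higher and 41 lower, and their high and medium arrays did not overlap. Over all genes, 5.77% had every medium array above every high array and 4.93% had every medium array below, and the median difference was 0.03. The number of calls rested strongly on single arrays. It was 2 without medium replicate 1, 4 without medium replicate 2, 11 without medium replicate 3 and 12 without high replicate 2. It was 20, 30 and 31 without low replicates 2, 1 and 3. Leaving out high replicate 3 raised it to 72. With only the high and medium arrays in the fit, 1 gene, Ly6a2, passed (limma adjusted p = 0.0440). Dcn and Ly6a2 were the genes called without each of the 9 arrays in turn.

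**Figure D1:**
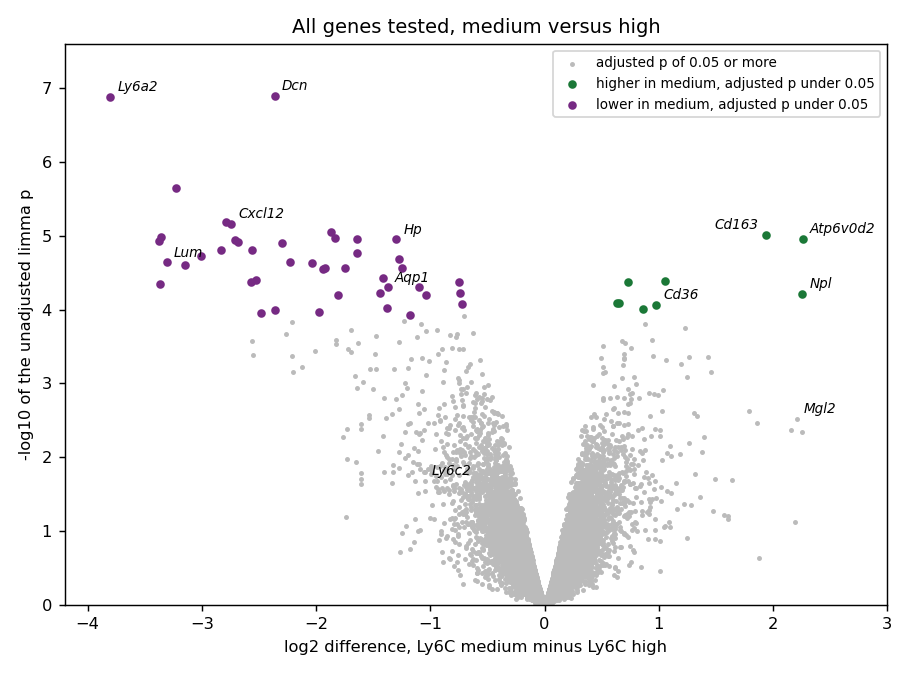
Each point is a gene, with the log2 difference of medium minus high on the horizontal axis and -log10 of its unadjusted limma p on the vertical axis. Green points mark the 9 genes higher in medium and purple points the 44 lower ones at a limma adjusted p under 0.05; Ly6a2 and Dcn lie at the top and Ly6c2 lies among the grey points that did not pass.

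Ly6a2, a member of the Ly6 family next to Ly6c2 on chromosome 15, gave the largest difference. It stood at 10.23, 9.82 and 10.43 in high and at 6.81, 6.16 and 6.11 in medium. The medium arrays sat nearer to the low gate (mean 5.40) than to any high array. Ly6a2 fell 14-fold, a log2 difference of -3.80 (SE 0.26, 95% interval -4.39 to -3.22, limma adjusted p = 0.00145), and its adjusted p ranged from 0.000324 to 0.0440 over all alternatives. Of 18 Ly6 family genes measured, Ly6a2 was the 1 that fell and 0 rose (limma; 3 lower and 1 higher at an unadjusted p under 0.05), with a median difference of -0.21 against 0.03 over all genes. That median was -0.06 without high replicate 1 and 0.06 without high replicate 2, so the direction of the family's median is not settled. Ly6e, a member found on many cell types, was at 12.60, 12.24 and 12.30 in high and 12.06, 12.03 and 12.04 in medium (limma adjusted p = 0.50). Ly6c1 was dim in both gates (2.5, 3.73 and 2.69; 2.83, 2.68 and 2.73).

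The promoters of Ly6a2 and Ly6c2 are shown because the gene that fell most and the gene of the sorted protein are near copies of each other upstream of their starts. The sequences are the 250 bases before each start from RefSeq (GRCm38.p6), both on the minus strand and written 5′ to 3′. Ly6a2 lies at chr15:75135129-75135378 and Ly6c2 at chr15:75111972-75112221. Capitals mark substitutions and bases without a counterpart in the other window. The leading capitals of Ly6a2 lie before the start of the Ly6c2 window and were not compared.
Ly6a2: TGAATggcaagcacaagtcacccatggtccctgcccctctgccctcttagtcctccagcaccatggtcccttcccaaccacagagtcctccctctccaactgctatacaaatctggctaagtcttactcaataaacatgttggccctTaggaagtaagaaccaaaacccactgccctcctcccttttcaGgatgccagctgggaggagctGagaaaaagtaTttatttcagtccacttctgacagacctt
Ly6c2: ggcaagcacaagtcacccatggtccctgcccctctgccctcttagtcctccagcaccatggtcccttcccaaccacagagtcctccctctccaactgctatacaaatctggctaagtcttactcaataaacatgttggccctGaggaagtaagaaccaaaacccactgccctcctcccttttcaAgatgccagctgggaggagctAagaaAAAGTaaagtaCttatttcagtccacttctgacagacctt
Of 245 aligned bases, 241 were identical (98.4%), with 4 substitutions, and 5 further bases within the aligned part were present in Ly6c2 alone. The table held 2 starts for Ly6c2, of which the first was used. The letters GAGGAA, a core motif of the myeloid factor PU.1, searched on both strands, occurred once in the Ly6c2 window and not in that of Ly6a2. At the aligned place Ly6a2 reads TAGGAA, so only the first letter of the searched string differs there. GAGGAA occurred in 23.1% of all 27025 promoters of the table. It occurred in 6 of the 30 lower genes with a promoter there and in 2 of the 5 higher ones, Pf4 and Gm20755. A match is a description of letters, not a bound site. Whether the Ly6a2 probe set also binds RNA of its near copies was not tested, so the value of each Ly6 gene is uncertain to that extent.

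Haptoglobin and its receptor moved in opposite directions. Hp encodes haptoglobin, a plasma protein that captures free haemoglobin and is also made by neutrophils and monocytes. Its values were 9.98, 9.58 and 9.75 in high and 8.38, 8.69 and 8.35 in medium. Hp fell 2.46-fold (-1.30, SE 0.15, limma adjusted p = 0.0176), with every medium array at least a full log2 step below the high mean of 9.77. Cd163 encodes the macrophage receptor that takes up haptoglobin-haemoglobin complexes. It read 6.31, 6.37 and 5.83 in high and 8.04, 8.50 and 7.76 in medium. Cd163 rose 3.82-fold (1.94, SE 0.22, limma adjusted p = 0.0176), and the arrays did not overlap. Both calls ended in 3 of the 9 fits that left out an array, with limma adjusted p-values up to 0.0968 for Cd163 and 0.101 for Hp, each without medium replicate 1. In the list for haemoglobin clearance and iron handling, 1 of 20 genes rose and 2 fell, with a median difference of 0.13 against 0.03 over all genes (0.06, 0.04 and 0.06 without high replicate 3, medium replicate 1 and medium replicate 2). The other one that fell was Steap4, a metalloreductase also expressed outside myeloid cells (6.19, 6.19 and 5.67 in high; 4.60, 4.24 and 4.30 in medium; limma adjusted p = 0.0202). Hmox1, the haem-degrading enzyme, was near the top of the scale in both gates (means 12.55 and 12.56), and its arrays overlapped. The iron exporter gene Slc40a1 had medium arrays above the high ones (3.87, 4.15 and 3.69; 4.93, 5.81 and 4.29) and did not pass (limma adjusted p = 0.579).

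**Figure D2:**
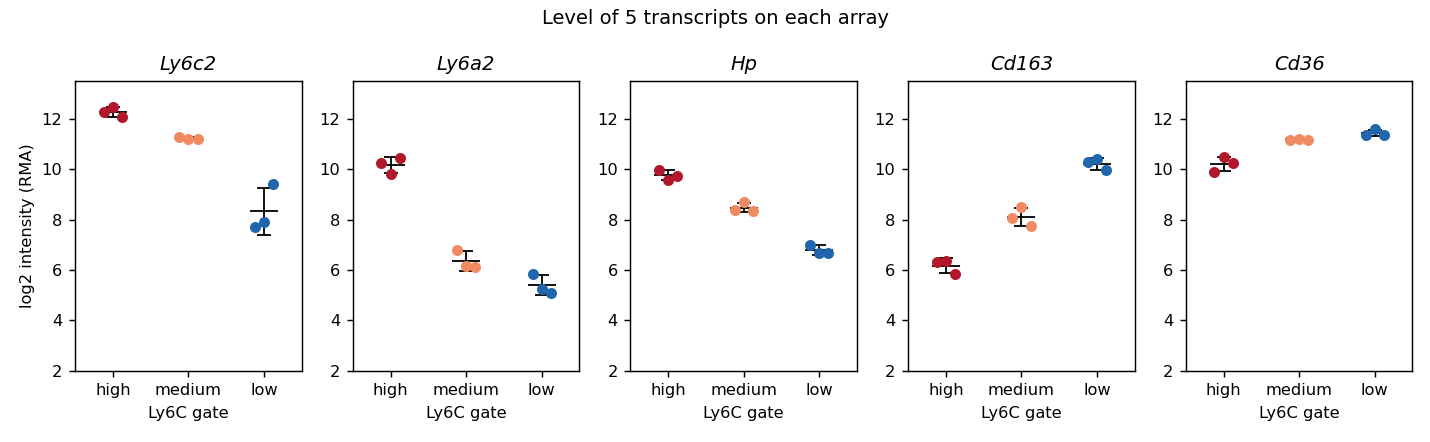
Log2 intensities of Ly6c2, Ly6a2, Hp, Cd163 and Cd36 on each array of the high, medium and low gates, with a bar at the mean of each gate. The 3 medium arrays lie below the high arrays for Ly6c2, Ly6a2 and Hp and above them for Cd163 and Cd36.

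The other genes that rose came from several roles. Atp6v0d2, a subunit of the proton pump that acidifies lysosomes, was at 3.43, 3.07 and 3.16 in high and 5.15, 6.17 and 5.11 in medium. It was below the typical array median in high and above it on each medium array, and it rose 4.79-fold (2.26, SE 0.26, limma adjusted p = 0.0176). The call was lost without medium replicate 1 (limma adjusted p = 0.0968) and without high replicate 2 (0.0793). Npl, a lyase that breaks down sialic acid, read 5.24, 5.82 and 5.38 in high and 7.76, 8.45 and 7.0 in medium, with medium replicate 2 the highest. It rose 4.78-fold (2.26, SE 0.32, limma adjusted p = 0.0327). Leaving out an array ended this call in 8 of 9 cases, with limma adjusted p-values up to 0.177 without medium replicate 1.

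Cd36, a scavenger receptor for oxidised lipids and fatty acids, was bright in both gates, at 9.89, 10.47 and 10.25 in high and 11.17, 11.20 and 11.17 in medium. The medium arrays lay within a narrow band above all high arrays. Cd36 rose 1.97-fold (0.98, SE 0.15, limma adjusted p = 0.0404). Pf4, a chemokine of platelets that macrophages also make, read 10.74, 10.67 and 10.49 in high and 11.36, 11.43 and 11.30 in medium and rose 1.66-fold (limma adjusted p = 0.0269). Ppbp, another platelet chemokine, had medium arrays of 10.84, 11.37 and 11.28 above high arrays of 9.48, 9.75 and 10.33 and did not pass (limma adjusted p = 0.274). The platelet receptor genes Itga2b (3.65 and 3.70) and Gp9 (3.85 and 4.04) were dim by their high and medium means. Of 5 platelet and erythroid genes measured, Pf4 rose and 0 fell (limma, with 2 higher and 0 lower at an unadjusted p under 0.05). All 5 differences were above 0, with a median of 0.18 (0.37 without high replicate 3). Their mean was 6.54, 6.54 and 6.71 on the high arrays and 6.98, 7.08 and 7.19 on the medium arrays. Washc5, part of the complex that branches actin on endosomes, rose 1.55-fold (8.26, 8.39 and 8.24 in high; 8.86, 9.04 and 8.88 in medium; limma adjusted p = 0.0403). The calls of Cd36, Pf4 and Washc5 were each lost without any 1 of the 9 arrays, with limma adjusted p-values up to 0.180 for Cd36 without medium replicate 1.

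The remaining genes that rose were dim. Wfdc21, a secreted protein with a whey acidic protein domain, read 2.52, 2.93 and 3.04 in high and 3.76, 4.02 and 3.85 in medium (2.07-fold, limma adjusted p = 0.0269). The other dim ones were 1700048M11Rik (1.82-fold) and Gm20755 (1.57-fold). Both gates' means for these 3 genes lay below the array medians, at the dim end of the scale.

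Genes of resident tissue macrophages tended to have medium arrays above high arrays, although Cd163 was the 1 of 24 that passed. Of the 24, 11 had every medium array above every high array and 0 had every one below (5.77% and 4.93% of all genes). At an unadjusted p under 0.05 (limma) 14 were higher and 0 lower, against 826 and 845 of all 22180 genes. The median difference was 0.58 against 0.03 over all genes. Lyve1 read 7.17, 7.55 and 6.27 in high and 9.18, 9.66 and 7.72 in medium (1.86, limma adjusted p = 0.309), with replicate 3 lowest in both gates. Vsig4, a complement receptor, was dim in high (2.97, 3.08 and 3.15) and reached 4.64, 4.63 and 3.68 in medium (limma adjusted p = 0.147). Mrc1, the mannose receptor, was bright throughout (9.84, 9.96 and 9.71; 10.50, 10.54 and 10.51; limma adjusted p = 0.0814). The folate receptor gene Folr2 differed by 1.33 and the clearance receptor gene Stab1 by 0.74 without passing. Broad macrophage genes showed smaller values, with overlapping arrays for Adgre1 (means 9.84 in high and 10.10 in medium), Csf1r (10.57 and 10.51) and C1qa (9.56 and 9.90).

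Genes of alternative activation, the state macrophages take on under interleukin 4, gave a median difference of 0.68 over 19 members. Without high replicate 3 this median was 0.39, and without medium replicate 2 it was 0.44. Cd163 again was the 1 that rose, 0 fell, and 6 were higher and 0 lower at an unadjusted p under 0.05 (limma). Mgl2, a lectin of dermal macrophages and dendritic cells, had medium values of 7.29, 6.05 and 4.90 against 4.53, 3.47 and 3.62 in high. Its medium arrays were spread over more than 2 log2 units, and it did not pass (2.21, limma adjusted p = 0.290). Ccl24, a chemokine for eosinophils, had means of 8.00 ± 0.51 (SD, n = 3) in high and 9.46 ± 0.50 in medium, with arrays that did not overlap (1.46, limma adjusted p = 0.133). Arg1, the arginase of this state, was at 10.15, 10.48 and 10.03 in high and 10.99, 11.12 and 10.91 in medium (0.79, limma adjusted p = 0.449). Retnla spread widely in both gates (3.53, 5.76 and 3.99; 6.77, 8.95 and 4.14) and overlapped.

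Among 30 genes for scavenging, efferocytosis and lipid handling, Cd36 was the 1 that rose and 0 fell (limma; 8 higher and 1 lower at an unadjusted p under 0.05), with a median difference of 0.16. Lpl, the lipoprotein lipase, had a difference of 1.03 with arrays that did not overlap (limma adjusted p = 0.270). The efferocytosis receptor gene Timd4 had arrays that touched (4.0, 4.03 and 4.35; 5.51, 6.10 and 4.35). The lysosome list had 1 of 21 higher, Atp6v0d2, and 0 lower (3 and 1 at an unadjusted p under 0.05, limma), with a median of 0.14 (0.06 without high replicate 3 and 0.08 without medium replicate 1). Its protease gene Ctse was at 5.73, 7.09 and 5.93 in high and 4.95, 5.22 and 4.99 in medium (limma adjusted p = 0.312).

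Medians near 0 depended on single arrays. Of the 35 lists described here, 29 had a median that moved by over 1.5 times or changed sign when some 1 array was left out, and for 8 of these the sign changed. The other 6 were the classical monocyte, resident tissue macrophage, scavenging and lipid handling, fibroblast, endothelial and natural killer cell lists.

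**Figure D3:**
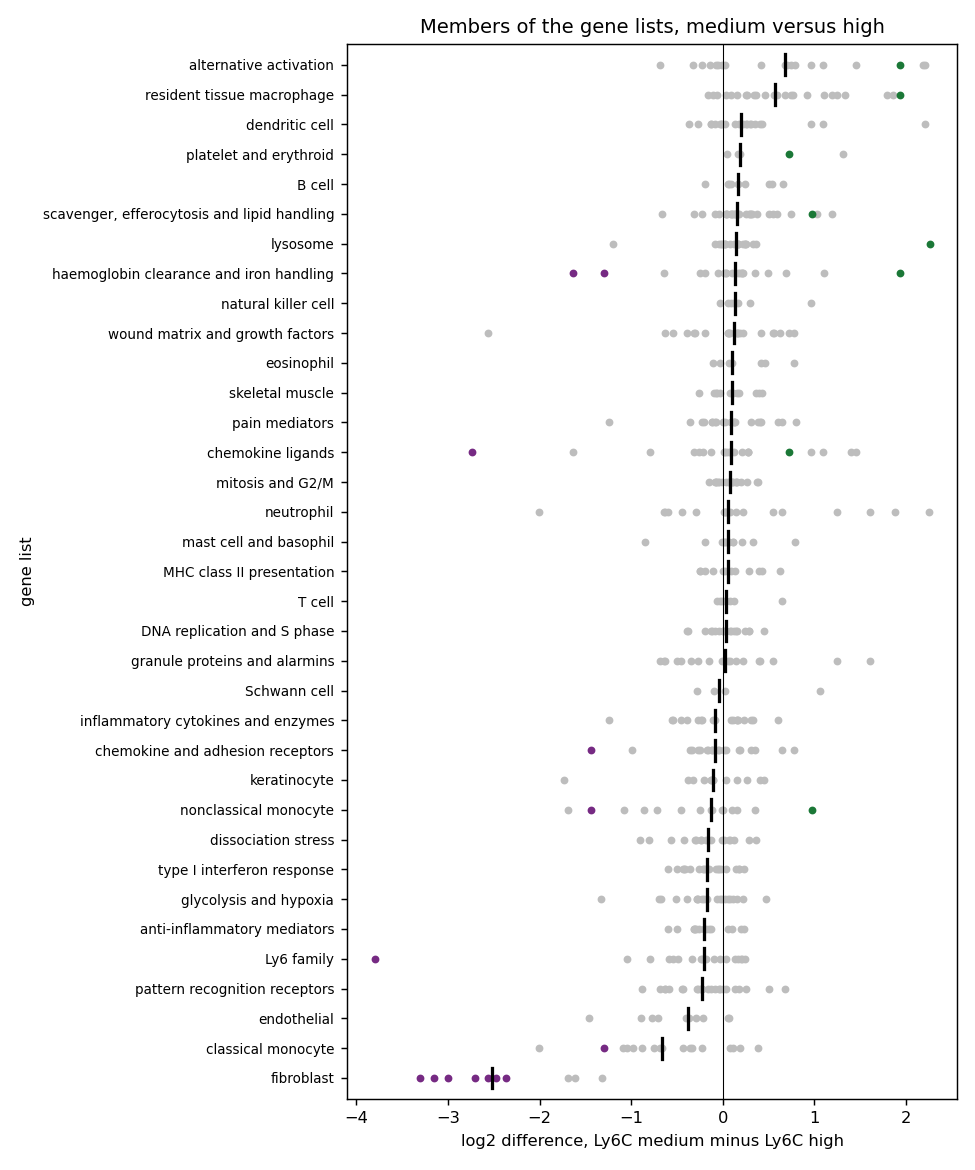
Log2 differences of medium minus high (horizontal axis) for every measured member of 35 gene lists (vertical axis), with a black bar at each list's median. Green and purple points passed at a limma adjusted p under 0.05; the fibroblast list lies far to the left (median -2.52), and the resident tissue macrophage (0.58) and alternative activation (0.68) lists lie to the right.

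Of the 44 genes that fell in medium, 7 are in the fibroblast list, and further ones encode known matrix proteins, a grouping made after the calls were seen. Aspn, Lum and Dcn are small proteoglycans that bind collagen. Aspn read 8.04, 7.79 and 6.42 in high and 4.37, 3.90 and 3.86 in medium (-3.38, limma adjusted p = 0.0176). Lum read 8.85, 8.79 and 7.14 in high and 4.95, 5.09 and 4.82 in medium (-3.31, limma adjusted p = 0.0215). Both were lowest among the high arrays on replicate 3 and still far above every medium array there. Dcn, the proteoglycan decorin, fell from 11.11, 10.54 and 10.46 to 8.37, 8.28 and 8.37, a 5.14-fold difference (-2.36, SE 0.16, limma adjusted p = 0.00145).

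Chains of fibrillar collagen fell with them. Col1a2 read 10.82, 10.61 and 9.36 in high and 6.86, 7.75 and 7.17 in medium and fell 8.03-fold (limma adjusted p = 0.0210). Col3a1 fell 6.54-fold and Col1a1 5.93-fold, and the weaker chain Col5a2 fell 2.60-fold. Col4a1, a chain of basement membranes, fell 1.68-fold. Other matrix genes that fell were Dpt (-3.15), Mfap5 (-2.56), Postn (-2.48), Ogn (-1.87), Sparc (-1.84) and Prelp (-1.98). Ccdc80, a secreted matrix protein, read 8.48, 7.88 and 7.19 in high and 4.55, 4.24 and 5.07 in medium (-3.23, limma adjusted p = 0.0167). A second probe set of Ccdc80 differed by -2.80, and one of Col1a2 by -2.17. For Heg1, Ccn2 and Prelp the second probe sets differed by 0.06, -0.11 and -0.61, so these calls depend on the probe set chosen. The Ccn2 call was lost with the mean of all its probe sets (limma adjusted p = 0.268).

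Several inhibitors and complement genes were also among those that fell, again grouped after the calls were seen. Serping1, the inhibitor of complement C1, read 9.79, 9.21 and 8.45 in high and 6.26, 5.65 and 5.46 in medium and fell 10.3-fold (limma adjusted p = 0.0176). Serpina3n, a protease inhibitor, also fell 10.3-fold (9.41, 9.62 and 8.35; 6.05, 5.36 and 5.89; limma adjusted p = 0.0278). The complement genes C1s1 (-1.81) and C7 (-2.53) and the endotoxin-binding protein gene Lbp (-2.68) fell too. A second probe set of C1s1 differed by -1.17, and its call was lost with the mean of all its probe sets (limma adjusted p = 0.208). Pi16, a peptidase inhibitor of fibroblasts, fell 7.14-fold and Prg4, the joint lubricant lubricin, 4.90-fold. Cxcl12, a stromal chemokine that holds CXCR4-bearing cells, read 9.57, 8.92 and 8.66 in high and 6.46, 5.77 and 6.68 in medium (6.69-fold lower, limma adjusted p = 0.0176). Osmr, the receptor chain for oncostatin M, fell 2.67-fold.

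The whole list of fibroblast markers was read next, and the markers that fell are among the genes already named above. Of 11 listed markers, 10 were measured and 7 fell, against 0.198% of all genes. All 10 had every medium array below every high array, against 4.93% of all genes. The median difference was -2.52 against 0.03 over all genes. The mean over the 10 markers was 8.68, 8.05 and 7.38 on the high arrays and 5.70, 5.5 and 5.65 on the medium arrays. The high arrays thus spread over more than 1 log2 unit, with replicate 1 highest and replicate 3 lowest, whereas the medium arrays lay close together. In the low gate the same mean was 5.19, 5.0 and 5.01. Col1a2 and Dcn were well above the array median on each medium array too. The part of fibroblast RNA in the other lower genes was not tested. The values of all lower genes within the high gate are given next.

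Of the 44 lower genes, 36 were highest on high replicate 1, the array with the most fibroblast signal, 2 on replicate 2 and 6 on replicate 3. The 36 include the 7 genes of the fibroblast list, all highest on replicate 1 and lowest on replicate 3. These 7 are among the 10 markers whose mean ranked the high arrays, so their order was partly fixed in advance. The 36 also include Steap4, which read the same on replicates 1 and 2. The share of all genes tested with this order was not computed, so these counts have no background. Why the genes share an order was not tested. On replicate 3, the high array with the least fibroblast signal, 30 were at their lowest. Replicate 1 exceeded replicate 3 by at least 2-fold for 17 genes. The 6 genes highest on replicate 3 were Ly6a2, Itgal, Ifitm6, Sorl1, Cnn3 and Ces2g, and 0 of them are in the fibroblast list. Without high replicate 1, 30 of the 53 calls were kept among 40, and without high replicate 3, 39 among 72.

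**Figure D4:**
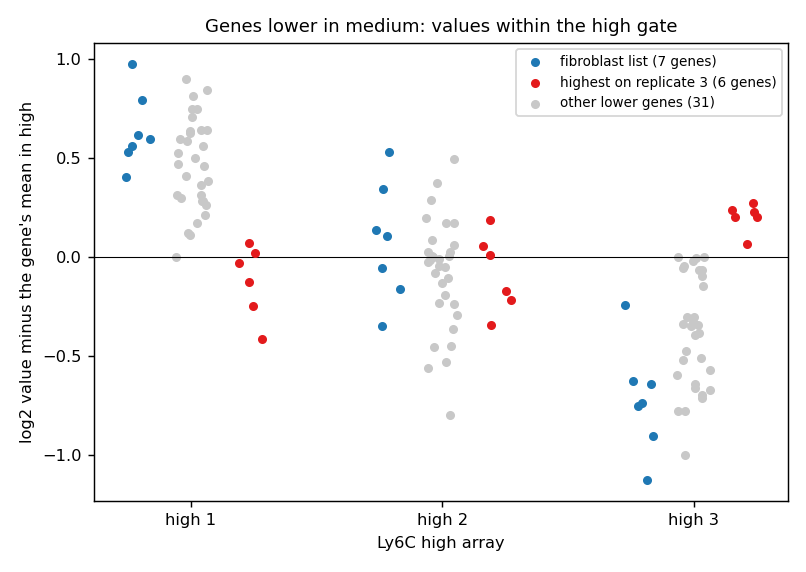
For each of the 44 genes lower in medium, the log2 value on each high array minus the gene's mean over the high arrays (vertical axis), by array (horizontal axis). The 7 genes of the fibroblast list (blue) are above 0 on replicate 1 and below 0 on replicate 3, and the 6 genes highest on replicate 3 (red) include Ly6a2, Itgal and Ifitm6.

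Several of the genes that fell are known from leukocytes. Itgal, the alpha chain of the adhesion integrin LFA-1, read 7.94, 7.79 and 8.17 in high and 6.52, 6.19 and 6.86 in medium. It was highest on high replicate 3 and fell 2.71-fold (limma adjusted p = 0.0327); this call, too, ended in 8 of 9 cases when an array was left out, with values up to 0.166 without medium replicate 1. Ifitm6, an interferon-induced membrane protein of myeloid cells, read 10.08, 9.84 and 10.26 in high and 8.08, 8.77 and 8.08 in medium and fell 3.36-fold (limma adjusted p = 0.0215). Sorl1, a sorting receptor, fell 2.37-fold (7.29, 7.55 and 7.78; 6.23, 6.27 and 6.39; limma adjusted p = 0.0215). Cytip, which restrains integrin adhesion in leukocytes, was nearly constant in high (8.51, 8.50 and 8.50) and read 7.86, 7.87 and 7.61 in medium (1.65-fold lower, limma adjusted p = 0.0404).

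The other genes that fell belong to no list. Gfpt2, an enzyme of hexosamine synthesis, fell 6.93-fold, and the secreted proteins Fstl1, Igfbp7 and Abi3bp fell 4.68-fold, 4.11-fold and 3.79-fold. The adhesion receptor Adgrd1 fell 5.12-fold and the neural adhesion molecule Chl1 2.42-fold. Nedd4, a ubiquitin ligase, read 7.57, 6.53 and 6.83 in high and 5.02, 4.74 and 5.34 in medium (3.84-fold lower, limma adjusted p = 0.0215). Cnn3, an actin-binding calponin, fell 2.26-fold, Heg1 3.11-fold and the matricellular growth factor Ccn2 2.06-fold. AI839979, whose product is not described here, fell 2.14-fold (10.09, 9.92 and 9.91; 9.13, 8.65 and 8.86). Ces2g, a carboxylesterase, was dim in both gates and fell 1.67-fold.

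Classical monocyte genes lay lower in medium, but Hp was the 1 of 17 that passed and 0 rose. Of the 17, 12 had every medium array below every high array and 1, Fn1, had every one above (4.93% and 5.77% of all genes). At an unadjusted p under 0.05 (limma) 9 were lower and 0 higher, against 845 and 826 of all 22180 genes. The median difference was -0.66, and the list includes Ly6c2, the transcript of the sorted protein. Cd177, a surface glycoprotein of neutrophils and some monocytes, read 8.91, 8.71 and 9.04 in high and 7.01, 6.36 and 7.28 in medium (-2.01, limma adjusted p = 0.0948). Plac8 read 10.51, 10.30 and 10.17 in high and 9.71, 9.65 and 9.35 in medium (-0.75, limma adjusted p = 0.0912). Ccr2, the receptor for bone marrow exit, stayed bright in both gates (10.06, 10.19 and 10.16; 9.78, 9.83 and 9.78; -0.34, limma adjusted p = 0.310). Vcan, the proteoglycan versican, differed by -0.98 and Chil3, a chitinase-like protein, by -0.69. The mean over the 17 genes was 10.02, 9.999 and 10.13 on the high arrays, against 9.47, 9.41 and 9.51 on the medium arrays.

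Of 15 nonclassical monocyte genes, Itgal fell and Cd36 rose, and the median difference was -0.12 (-0.02 without high replicate 2 or medium replicate 1, -0.19 without medium replicate 2). Ace, angiotensin-converting enzyme, read 6.78, 6.65 and 6.31 in high and 4.81, 4.82 and 5.03 in medium (-1.69, limma adjusted p = 0.0691). Adgre4, an adhesion receptor of monocytes, read 6.92, 6.99 and 7.25 in high and 6.07, 5.95 and 5.89 in medium (-1.08, limma adjusted p = 0.0607). Nr4a1, a nuclear receptor needed by patrolling monocytes and induced by stimulation, differed by -0.86 (limma adjusted p = 0.339), and Cx3cr1 overlapped (means 7.25 and 7.13).

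The mean of medium lay outside the means of both other gates for 16 of the 53 called genes. For 3 of these, Aqp1, Wfdc21 and 1700048M11Rik, low and medium also differed at a limma adjusted p under 0.05. Aqp1, a water channel, read 6.86, 6.74 and 6.04 in high, 5.16, 5.2 and 5.17 in medium and 9.04, 9.12 and 8.96 in low. Medium was below both other gates on every array. Set against the mean of high and low, the medium gate was lower by 2.62 on the log2 scale for Aqp1 (difference -2.62, SE 0.17, limma adjusted p = 0.00147), the 1 gene called in this contrast (0.00451%). With limma, 0 genes were higher in medium than that mean, against 818 higher and 1032 lower at an unadjusted p under 0.05. This contrast shares the medium and high arrays with the comparison of medium and high. Wfdc21 and Atp6v0d2 give the values side by side for genes that rose: the low means were 2.94 for Wfdc21, near its high mean of 2.83, and 5.45 for Atp6v0d2, near its medium mean of 5.48. For Cd163 and Npl the low means, 10.21 and 10.25, lay above medium (8.10 and 7.74).

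**Figure D5:**
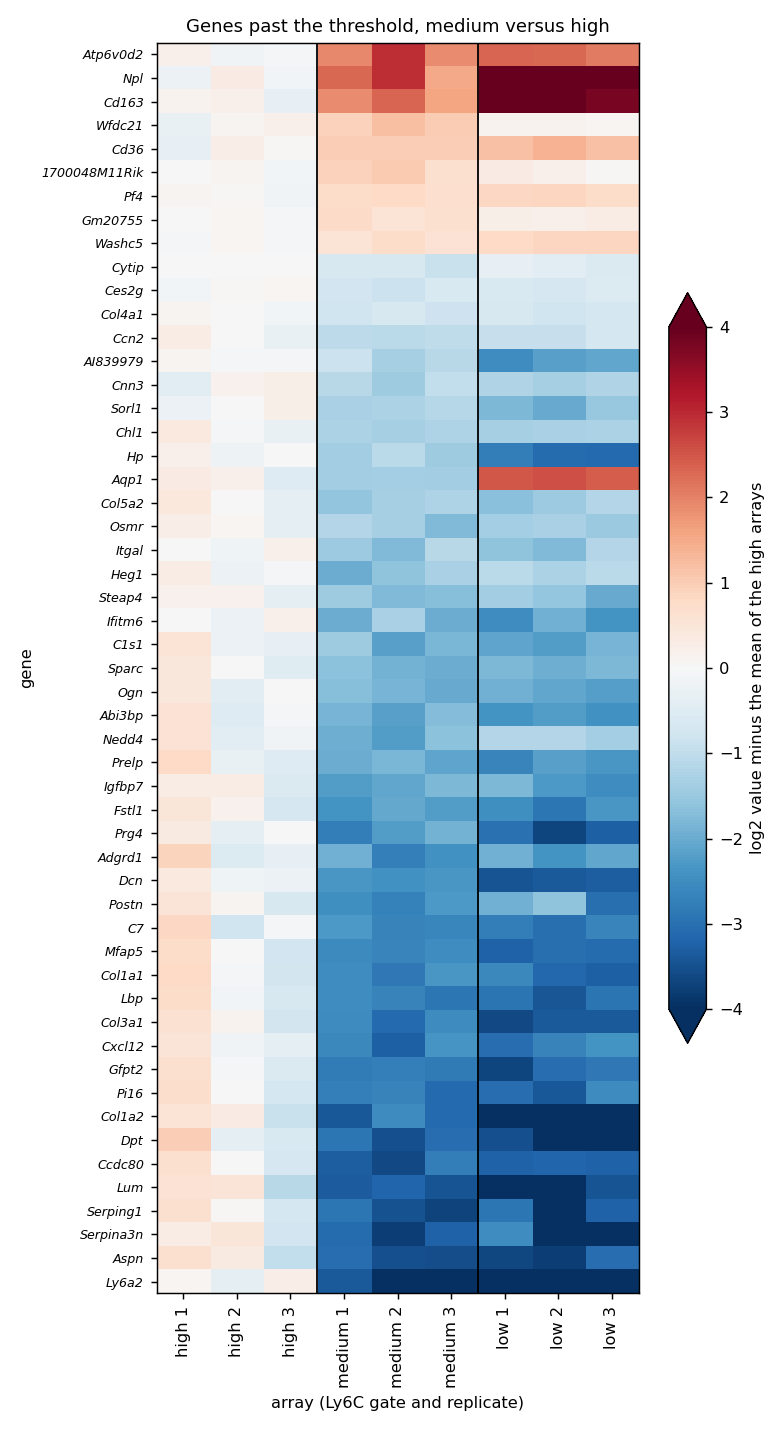
Heat map of the 53 genes past the threshold (rows) on all 9 arrays (columns), as the log2 value minus the gene's mean over the high arrays. Genes higher in medium are at the top, and most lower genes, from Ly6a2 upward, have similar colours in medium and low; Aqp1 is blue in medium and red in low.

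No inflammatory or pain-related gene of the lists passed. Of 19 inflammatory cytokine and enzyme genes, 0 passed in limma (1 higher and 0 lower at an unadjusted p under 0.05), and the median difference was -0.08. That median was 0.11 without high replicate 3 and 0.17 without medium replicate 2, and -0.17 and -0.22 without high replicate 2 and medium replicate 3. Il1b was bright in both gates (12.07, 11.96 and 12.42; 11.86, 11.71 and 12.20), as were Tnf (10.92, 11.15 and 11.90; 11.34, 11.44 and 12.12) and Ptgs2 (11.88, 11.82 and 12.29; 11.92, 11.64 and 12.17), the inducible prostaglandin synthase. In all 3 genes replicate 3 was the highest array of each gate, and the gates overlapped. Il6 read 9.42, 9.20 and 10.71 in high and 7.36, 8.46 and 9.76 in medium (limma adjusted p = 0.730). Nos2, the inducible nitric oxide synthase, had medium arrays just above high (5.91, 5.96 and 5.76; 6.40, 6.71 and 6.33; limma adjusted p = 0.476). For 15 anti-inflammatory genes 0 passed (0 higher and 3 lower at an unadjusted p under 0.05, limma), and Il10 overlapped (means 9.94 and 10.13). For 23 pain mediators 0 passed (1 higher and 0 lower unadjusted, limma), with a median of 0.09 that was 0.04 without medium replicate 1 and -0.02 without medium replicate 3.

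No gene of the lists for the interferon response or pattern recognition passed. Ifitm6 and Lbp, described above, passed but are in neither list. Of 21 interferon genes 0 passed (0 higher and 3 lower at an unadjusted p under 0.05, limma), with a median of -0.17. Without single arrays this ranged from -0.34 (medium replicate 3) and -0.29 (high replicate 2) to -0.06 (medium replicates 1 and 2). Ifit2 read 6.38, 6.19 and 6.72 in high and 5.72, 5.76 and 6.03 in medium (-0.59, limma adjusted p = 0.333). Oas3 read 8.19, 8.28 and 8.21 in high and 7.74, 7.84 and 7.86 in medium (-0.41, limma adjusted p = 0.274). Of 25 pattern recognition receptors 0 passed (1 higher and 4 lower unadjusted, limma), with a median of -0.22 (-0.05 without high replicate 3, and -0.14 without medium replicate 1 or 2). Trem1, an amplifier of inflammatory signals, differed by -0.88 and Tlr9, a DNA sensor, by -0.63.

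Chemokine genes went in both directions. Of 25 ligands, Pf4 rose and Cxcl12 fell, and the median was 0.09 (0.02 without medium replicate 3, up to 0.22 without high replicate 3). Ccl8 read 8.80, 8.95 and 8.07 in high and 10.05, 10.82 and 9.13 in medium (1.40, limma adjusted p = 0.362). Ccl11, the eosinophil chemokine eotaxin that fibroblasts make, read 7.72, 7.33 and 7.10 in high and 6.01, 5.89 and 5.36 in medium (-1.63, limma adjusted p = 0.0834). Of 20 chemokine and adhesion receptors Itgal fell and 0 rose (limma; 1 higher and 3 lower unadjusted), with a median of -0.09 (-0.04 without high replicate 1). Of 22 wound matrix and growth factor genes 0 passed (2 higher and 3 lower unadjusted, limma), and the median was 0.12 (0.02 without medium replicate 3, 0.20 without medium replicate 2). Mmp2, a gelatinase of fibroblasts, read 8.95, 7.75 and 7.0 in high and 5.10, 5.39 and 5.52 in medium (limma adjusted p = 0.0814).

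Nor did any listed gene of antigen presentation or proliferation pass. Of 22 dendritic cell genes 0 passed (2 higher and 0 lower at an unadjusted p under 0.05, limma), with a median of 0.20 (0.12 without high replicate 2 and 0.09 without medium replicate 1). Every medium array lay above every high array for 3 of the 22 and below for 0 (5.77% and 4.93% of all genes). The largest difference was that of Mgl2 (2.21), described above. Ccl17 read 3.14, 3.39 and 3.41 in high and 3.83, 5.44 and 3.95 in medium (1.10, limma adjusted p = 0.712). Cd207 differed by 0.40 (limma adjusted p = 0.609). Ccr7 (means 6.41 and 6.72), Flt3 (4.98 and 4.85) and Zbtb46 (4.19 and 4.06) overlapped between high and medium. Of 12 MHC class II genes 0 passed (1 higher and 0 lower unadjusted, limma), and their median of 0.06 ranged from -0.01 without medium replicate 1 to 0.14 without medium replicate 3. For 20 S phase and 21 mitosis genes limma passed 0, against 0 higher and 1 lower and 1 higher and 0 lower unadjusted. Their medians were 0.03 and 0.08, the first turning to -0.01 with arrays centred and to -0.08 without medium replicate 1. Of 21 glycolysis and hypoxia genes 0 passed (0 higher and 4 lower unadjusted, limma), with a median of -0.17 (-0.31 without high replicate 2 and -0.0054 without medium replicate 2). The 19 dissociation stress genes, switched on while tissue is digested, also had 0 past the threshold (0 higher and 4 lower unadjusted, limma; median -0.16, and -0.03 without high replicate 1), with Ier2 at -0.90 and Btg2 at -0.81.

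Markers of other cells that the gates could hold were read in the same way. Of 10 endothelial markers 0 passed (0 higher and 4 lower at an unadjusted p under 0.05, limma), with a median of -0.38 and a mean of 5.15, 4.95 and 4.82 on the high arrays against 4.56, 4.44 and 4.43 on the medium arrays. Pecam1 and Cdh5 had medium arrays below high (-0.77 and -1.46), and their order within the high gate was that of the fibroblast markers, while Flt1 ran the other way (5.68, 6.09 and 6.26). Of 18 neutrophil markers 0 passed (1 higher and 2 lower unadjusted, limma; median 0.06, up to 0.18 without medium replicate 2). Cd177, described above with the monocyte genes, had the lowest difference (-2.01, limma adjusted p = 0.0948), and Il1r2, a decoy receptor for interleukin 1, differed by -0.60 (limma adjusted p = 0.508). S100a8, an alarmin, read 6.49, 7.65 and 8.28 in high and 8.34, 8.82 and 10.07 in medium (limma adjusted p = 0.687), and Retnlg 2.90, 2.45 and 3.59 against 4.18, 6.36 and 5.16 (limma adjusted p = 0.338). The 20 granule protein and alarmin genes had 0 past the threshold (1 higher and 1 lower unadjusted, limma), and their median of 0.02 turned to -0.03 with quantile normalization repeated and to -0.08 without medium replicate 1.

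Lymphoid, granulocyte and structural cell markers were mostly dim. The eosinophil (7 genes, median 0.10), natural killer cell (9, 0.13), T cell (9, 0.04), B cell (9, 0.17), mast cell and basophil (12, 0.06), keratinocyte (13, -0.11), skeletal muscle (12, 0.10) and Schwann cell (4, -0.04) lists each had 0 past the threshold. With limma at an unadjusted p under 0.05 these lists had at most 2 higher and at most 1 lower. The T cell median turned to -0.01 with arrays centred, the keratinocyte median to 0.17 without high replicate 2 and the Schwann cell median to 0.06 without medium replicate 1. Epx (means 3.38 and 3.35), Cd3e (3.10 and 3.09), Ms4a1 (2.94 and 3.01) and Ncr1 (3.06 and 3.36) lay below the array medians in both gates. Other members differed more. Ccr3 of the eosinophil list read 4.03, 3.78 and 4.62 in high and 4.94, 4.82 and 4.99 in medium (0.77, limma adjusted p = 0.482). In the B cell list Cd79b differed by 0.66 and Cd22 by 0.50. The highest difference in the natural killer cell list was 0.96. The lowest in the mast cell and basophil list was -0.85 and in the keratinocyte list -1.73. Krt6a, a keratin of wounded epidermis, stood out on high replicate 2 (4.81, 8.17 and 4.23), as did Ly6d (5.52, 8.44 and 5.19), which keratinocytes also express.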

How the data were processed

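The authors deposited log2 values from Affymetrix arrays, processed with RMA (background correction, normalization between arrays and summary per probe set) per the submitters' processing notes; its version and the genome build are not given in the sources used here. Per the labels' protocols, RNA was amplified before hybridization, which can alter relative abundances. The values were used as deposited, without a filter.

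Of 41345 probe sets, 23521 had 1 symbol, 1814 had several and 16010 had no name in the probe table. Only those with 1 symbol were used. Where a gene had several (1082 genes), the brightest by its mean over the 9 arrays was taken. The 22180 genes were fitted with R 4.3.3 and limma 3.58.1 (lmFit, eBayes, two-sided) on all 9 arrays with 6 residual degrees of freedom, with Benjamini-Hochberg adjustment over all genes and a threshold of 0.05. Precision is limited by the number of arrays. The fit was tested on simulated data.

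The members and the 35 gene lists (559 genes, 514 measured and 45 not analysed here) were chosen with earlier results of these data known. Selected for naming were the sort transcripts, the given markers (Ly6a2, Hp, Cd163, Cd36) and the largest differences in each direction whose arrays do not overlap. Up to 4 members per list with the largest difference were selected too. Not every selected gene is given above, for example Ccl22, Cd24a, H2-Eb1, Mcm6, Mki67 and Zfp992. Other genes named, such as Flt3, Zbtb46, Epx and Cd3e, were chosen after their values were seen. Promoters were aligned with Biopython 1.88. Alternatives changed normalization, probe sets, filters, prior, weights, block, arrays in the fit and each array in turn.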

Additional observations from a re-analysis of the deposited data

How the results depend on the processing

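Calls of genes between medium and high depended more on which arrays entered the fit than on scaling. With quantile normalization repeated, arrays centred, the mean of all probe sets, a trended and robust prior, or array weights, there were 50 to 60 calls, of which 49 to 52 were among the 53. The filters on dim genes gave 67 (above the array median) and 55 (a log2 value of at least 6). With only the high and medium arrays there were 0 higher and 1 lower, and the contrast with the mean of high and low has no value there. Leaving out each array in turn gave 0 to 5 higher and 2 to 67 lower genes, and for medium against the mean of high and low 0 to 2 higher and 1 to 3 lower. Ly6c2 passed without low replicate 3 (-1.05, limma adjusted p = 0.0407) and not without any other array, where its difference was -1.15 to -0.94.

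Replicate numbers are shared between gates. Deviations of samples with the same number (replicates 1, 2 and 3) correlated at 0.03, -0.02 and 0.31 for high with medium. For high with low the values were 0.02, -0.01 and 0.11, and for medium with low 0.13, 0.10 and 0.16. Most were thus positive, but the number was not taken as a pairing in the main fit. Whether replicates share an effect across gates was not tested. With the replicate block, 14 genes were higher and 47 lower, and 43 of the 53 were kept. Among the genes added were Ccl11, Ccl24, Cd177, Folr2, Ppbp and Stab1.

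Of 2381 recomputed values for 135 named genes, 1963 kept direction and call, 385 lost the call, 24 gained it and 9 changed sign. Over the fits that left out an array, Lif ranged from -1.16 to 0.17, Ly6c1 from -0.46 to 0.15, Ly6d from -1.39 to 0.24 and Ly6g from -0.26 to 0.19. Ly6g also changed sign with quantile normalization (-0.0030) and with arrays centred (-0.010). The cause was not tested. For dim genes, signal near background limits what can be seen.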
